A study of Mus musculus with 50 samples.

Results

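The 55 genes described here are the interleukins, interleukin receptor chains and interleukin inhibitors of the mouse that were spotted on both array designs of a study of IL-13 in the airways. They were taken by symbol: every probe whose single gene symbol begins with Il and a digit, without Il13, Il4, Il33 and the receptor chains of IL-4 and IL-13. They make up 55 of 13509 named genes. By role they fall into 25 ligands or ligand subunits, 25 receptor chains, 4 inhibitors or decoys and 1 enzyme, Il4i1, which shares only the name. By family, 14 belong to the IL-1 family, 12 to the common gamma chain list (with Il4i1 filed there, though it is no ligand or chain of that receptor), 11 to the IL-6 and IL-12 family, 7 to the IL-17 family, 5 to the IL-10 family and 4 to the common beta chain family, and Il16 and Il34 stand outside these.

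Interleukins are secreted signals between immune cells and tissue cells, read by paired receptor chains on the target cell. In the IL-1 family the agonists IL-1 and IL-18 signal through a binding chain and an accessory chain (Il1r1 with Il1rap, Il18r1 with Il18rap), and are held in check by a receptor antagonist (Il1rn), a decoy receptor without a signalling domain (Il1r2) and a soluble binding protein (Il18bp). Most other interleukin receptors signal through Jak kinases and Stat factors. IL-13, the cytokine given or expressed in most of these animals, signals through Stat6.

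The arrays had 2 channels, a reference and a sample, and each value is a log2 ratio of these channels, taken here as sample over reference after the median of the array was set to 0. The labels do not state that direction. It is the likely one: with this sign the Stat6-/- perfusate of IL-13 animals exceeded PBS perfusate in Il13 by 2.72 (limma, adjusted p = 1.77e-06). There were 10 groups of 5 arrays. In tracheal perfusate and in whole lung alike, the genotypes Stat6+/-, Stat6-/- and Stat6-/- Epi+ each formed 1 group with IL-13, 1 group had received OVA (ovalbumin, an allergen) and 1 had received PBS (saline). As background, Epi+ most likely marks a transgene returning Stat6 to the airway epithelium, while the labels give only the mark. The labels give no age, no genotype for the OVA and PBS animals, no line or route for the IL-13, and no Stat6-/- or Epi+ group without IL-13. A comparison of an IL-13 group with PBS therefore holds IL-13 and genotype together, and their parts cannot be told apart. Nothing in the labels ties each array to an animal of its own, and the p-values cover the spread among these samples, which may be technical. Perfusate RNA was amplified in 1 round, which the labels state for all but 3 arrays (Epi+ 16, PBS 22 and OVA 28), lung RNA was not amplified, and the references differed, so only differences within a tissue are compared and never levels between tissues.

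The arrays held 15693 to 18655 spots with a value, and 43 to 55 of the 55 genes were measured on each. The Stat6 probe did not separate the genotypes: it ranged from 0.10 to 1.28 in Stat6+/- and from 0.33 to 1.32 in Stat6-/- perfusate, and from -1.37 to -0.22 and from -0.92 to -0.42 in the lungs. No source used here places this probe relative to the deleted part, and it therefore checks nothing. On 3 of the 5 perfusate Stat6-/- arrays (numbers 10, 11 and 12) and 2 of the 5 lung Stat6-/- arrays (1 and 2) the Y-linked probe Eif2s3y was low, between -1.46 and -0.95 and between -3.34 and -3.16. It was also low on perfusate Epi+ array 16, at -1.07, on lung OVA array 5, at -2.75, and on lung Stat6-/- array 5, at -1.21, where the other Y-linked probe, Uty, stood at 0.38. No threshold defines these arrays: Eif2s3y stood at -0.92 on lung Epi+ array 6 and at -0.89 on lung PBS array 1, and Uty at -0.98 on perfusate Stat6+/- array 4, beside -0.95 and -0.93 on Stat6-/- arrays 11 and 12. Called differences between Stat6+/- and Stat6-/- are given with and without the first 5 arrays named, where the refits needed only 2 arrays per group to test a gene. Uncalled values, and Stat6-/- against Epi+ or PBS, are given only with them. In bulk RNA of this kind, fewer cells of a type and less RNA per cell cannot be told apart.

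Sequence upstream of the genes that changed is shown first, because Stat factors bind a short palindrome, TTC and GAA with a spacer, and the genotypes differ in Stat6. A gene is said to have changed, here and below, where limma gave an adjusted p under 0.05 over all genes of the comparison. Of the 13 genes that changed in any comparison, 12 had a RefSeq start site in the table used (assembly GRCm38.p6), and Il15 had none. The 250 bases before the start held TTCNNNNGAA, the spacing known for Stat6, in Il18 and Il1rn, and TTCNNNGAA, the spacing known for other Stat factors, in Il1r2 and Il7r. The other 8 held neither. Both patterns read the same on either strand and do not overlap each other in these windows. Of 27025 genes with a window, 6.76% held the first pattern and 8.13% the second in at least 1 window (5.85% and 7.02% of 32851 windows). A match is a description of letters and not a binding site. The 4 windows with a match follow, 5′ to 3′ on the strand of the gene, with the matched bases in capitals. They are Il18 at chr9:50554450-50554699 (plus strand), Il1rn at chr2:24345041-24345290 (plus strand, 1 of 3 windows of this gene, of which an overlapping one holds the same match and the third holds none), Il1r2 at chr1:40085843-40086092 (plus strand) and Il7r at chr15:9529877-9530126 (minus strand).
Il18: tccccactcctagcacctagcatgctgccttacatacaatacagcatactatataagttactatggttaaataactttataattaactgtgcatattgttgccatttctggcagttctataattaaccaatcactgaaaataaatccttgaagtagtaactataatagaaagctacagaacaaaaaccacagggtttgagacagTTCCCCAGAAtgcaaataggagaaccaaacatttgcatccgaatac
Il1rn: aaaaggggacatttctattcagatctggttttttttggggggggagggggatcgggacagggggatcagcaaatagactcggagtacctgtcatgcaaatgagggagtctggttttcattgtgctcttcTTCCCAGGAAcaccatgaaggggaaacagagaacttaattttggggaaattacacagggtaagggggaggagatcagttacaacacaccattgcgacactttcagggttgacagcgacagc
Il1r2: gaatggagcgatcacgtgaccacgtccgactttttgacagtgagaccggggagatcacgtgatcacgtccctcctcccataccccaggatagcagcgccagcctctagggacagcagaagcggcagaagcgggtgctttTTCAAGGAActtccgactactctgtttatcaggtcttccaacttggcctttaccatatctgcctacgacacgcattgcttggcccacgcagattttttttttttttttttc
Il7r: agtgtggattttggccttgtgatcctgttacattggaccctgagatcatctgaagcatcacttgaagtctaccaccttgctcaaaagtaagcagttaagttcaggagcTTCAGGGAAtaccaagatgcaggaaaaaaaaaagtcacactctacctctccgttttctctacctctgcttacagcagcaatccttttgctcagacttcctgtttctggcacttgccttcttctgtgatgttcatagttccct
The matches begin 46, 121, 111 and 142 bases before the start of Il18, Il1rn, Il1r2 and Il7r. All 4 genes gave a called difference in whole lung or between tissues, as described below. So did Il4i1, Il1r1, Il18bp, Il17rd, Il6 and Il21r, which held neither pattern.

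In the grid of 55 genes by comparison, 13 genes changed in at least 1 comparison and most did not change in any. Whole lung with IL-13 and Stat6 held the most, followed by Stat6+/- perfusate against PBS.

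**Figure D1:**
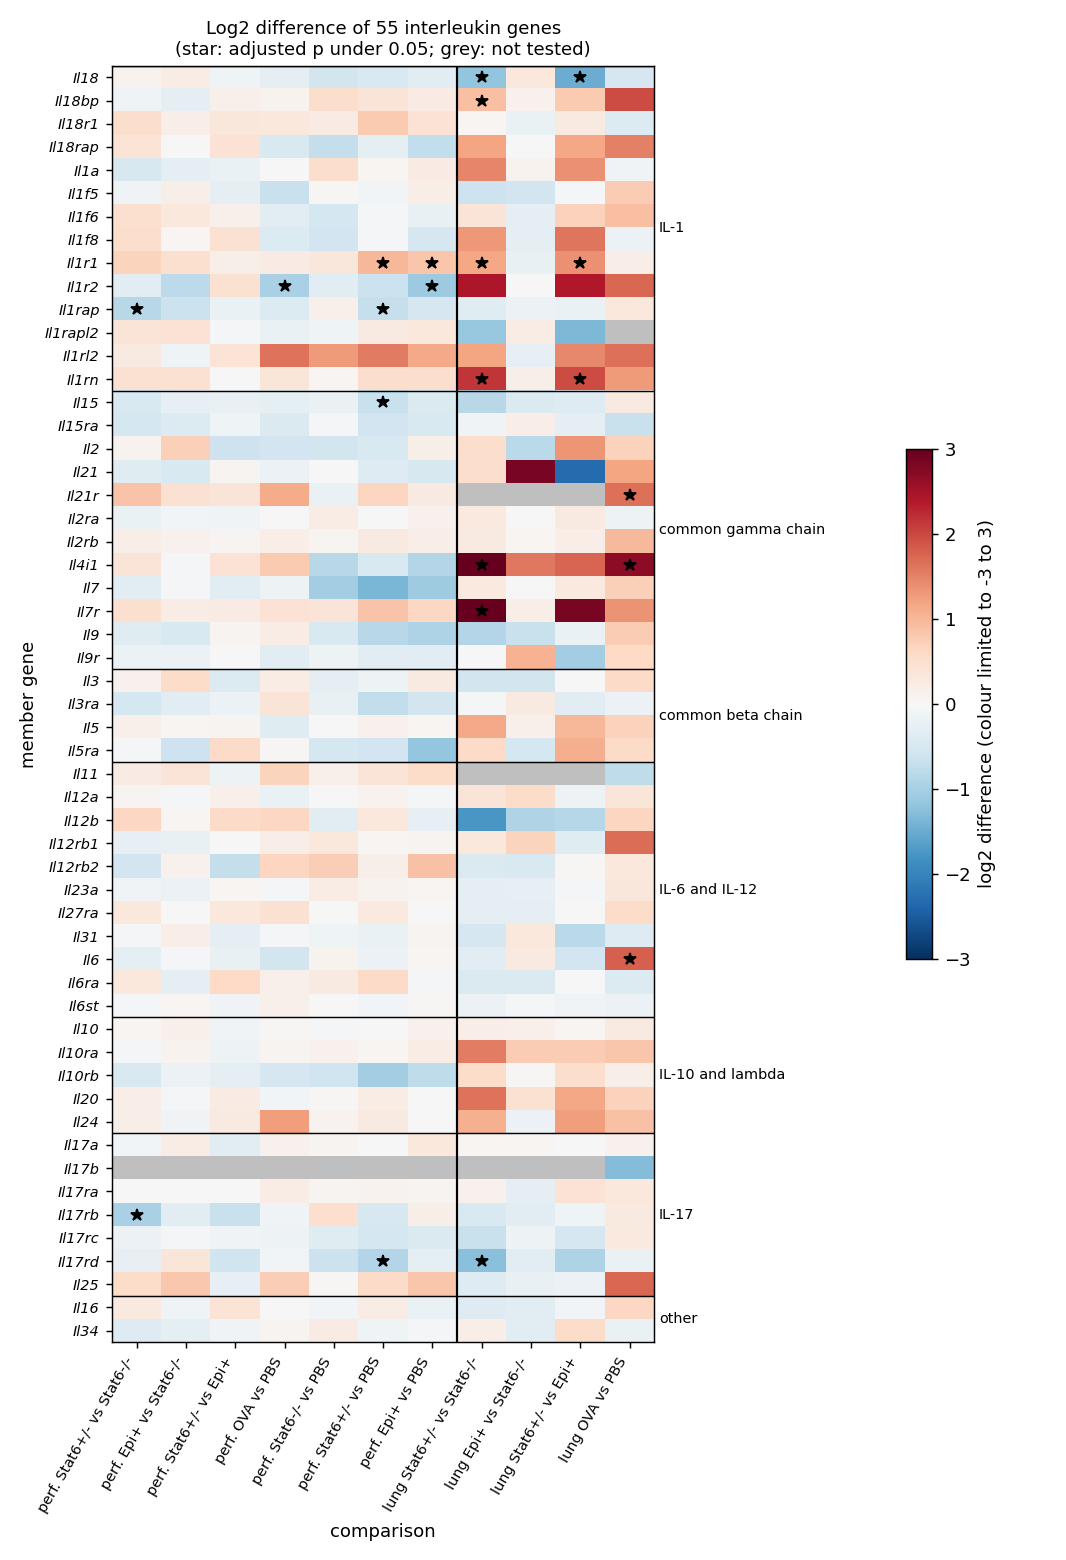
Log2 difference of each of the 55 genes (rows, by family) in 11 comparisons within a tissue (columns, 7 in perfusate and 4 in lung), with colour limited to the range from -3 to 3. Stars mark adjusted p under 0.05 and grey marks genes not tested; the stars lie mainly in the IL-1 family, 1 column of lung holds 7 of them, and 4 columns hold none (the enzyme Il4i1 is drawn with the common gamma chain genes).

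In whole lung, the comparison of IL-13 Stat6+/- with IL-13 Stat6-/- asks which of these genes differ with the presence of Stat6. Of 52 tested genes, 5 rose with Stat6 (Il4i1, Il7r, Il1rn, Il1r1 and Il18bp) and 2 fell (Il18 and Il17rd), against 5.01% of all genes and unnamed spots called in this comparison (3.3% higher and 1.71% lower). The share among the interleukin genes was not tested against that of the array. The median difference over the 52 genes was 0.17, beside -0.04 over everything tested. The IL-1 family held 4 of the 7 calls: 3 of its 14 genes rose and 1 fell, with a family median of 1.03. Of the 6 tested IL-17 family genes 1 fell, with a median of -0.43. On the common gamma chain list Il4i1 and Il7r rose among 11 tested, so Il7r was the 1 receptor gene of that family called, and none of the 10 tested IL-6 and IL-12 genes, the 5 IL-10 family genes or the 4 common beta chain genes was called by limma (1, 2 and 1 of them, and 19.4% of everything tested, had an unadjusted p under 0.05).

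Il1rn, the antagonist that occupies the IL-1 receptor without activating it, stood at 1.85, 3.41, 1.86, 3.37 and 1.48 in Stat6+/- lungs. In Stat6-/- lungs it stood at -0.01, 0.17, -0.14, 0.73 and 0.54. Every Stat6+/- array was above every Stat6-/- array. The difference was 2.13 ± 0.33 (SE, n = 5 and 5), or 4.39-fold, with an adjusted p of 0.00271, and 2.07 with an adjusted p of 0.0326 without the Stat6-/- arrays low in Y-linked probes. Without centring it was 1.76 and no longer called (adjusted p = 0.0625).

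Il18bp, which binds and neutralises IL-18, stood at -0.60, 0.52, 0.71, 0.15 and 0.86 in Stat6+/- lungs. In Stat6-/- lungs it stood at -0.59, -0.07, -0.22, -1.25 and -0.74. The groups overlapped through Stat6+/- array 1, the lowest of its group. The difference was 0.90 ± 0.22 (SE, n = 5 and 5; adjusted p = 0.0303). The call was lost without any 1 of Stat6-/- arrays 2, 4, 5 and 6 or Stat6+/- arrays 3, 5 and 6, with differences of 0.77 to 1.06 over the 10 refits and an adjusted p of up to 0.0740, and without the Stat6-/- arrays low in Y-linked probes (1.01, adjusted p = 0.107).

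Il1r2, the decoy receptor, had a difference that missed the threshold. It stood at -0.72, 2.26, 2.03, 1.12 and 3.30 in Stat6+/- lungs and at -1.59, -0.06, -0.15, -1.30 and -1.08 in Stat6-/- lungs. Only Stat6+/- array 1 fell among the Stat6-/- arrays, and the difference was 2.43 ± 0.67 (SE, n = 5 and 5; adjusted p = 0.0564). The fourth gene of this role, Il1f5, an antagonist of the IL-36 receptor, had a difference of -0.62, and the median of the 4 was 1.52.

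Among receptor chains, Il7r, the binding chain for IL-7, stood at 0.41, 4.82, 1.93, 2.09 and 2.64 in Stat6+/- lungs and at -0.54, 0.15, -0.25, -1.61 and -1.16 in Stat6-/- lungs. The groups did not overlap, although the Stat6+/- arrays spread widely. The difference was 3.06 ± 0.72 (SE, n = 5 and 5), or 8.35-fold, with an adjusted p of 0.0303. The call was lost without any 1 of the 5 Stat6-/- arrays or Stat6+/- array 5, with differences of 2.35 to 3.52 over the 10 refits and an adjusted p of up to 0.0722. It was also lost without the Stat6-/- arrays low in Y-linked probes (3.35, adjusted p = 0.124).

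Il1r1, the signalling receptor of IL-1, stood at 0.96, 2.31, 1.38, 1.94 and 0.74 in Stat6+/- lungs and at 0.34, 0.44, -0.21, 0.67 and 0.32 in Stat6-/- lungs. The groups did not overlap, though Stat6+/- array 6 and Stat6-/- array 5 were close. The difference was 1.15 ± 0.26 (SE, n = 5 and 5; adjusted p = 0.0216). The call was lost without Stat6-/- array 1, 4 or 6 or Stat6+/- array 5, with differences of 0.98 to 1.34 over the 10 refits and an adjusted p of up to 0.0604, and without the Stat6-/- arrays low in Y-linked probes (1.25, adjusted p = 0.0875).

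Il17rd, a receptor-like protein of the IL-17 receptor family, fell. It stood at -0.06, -1.39, -1.43, -1.05 and -1.45 in Stat6+/- lungs and at 0.37, 0.22, 0.02, 0.36 and -0.07 in Stat6-/- lungs. Stat6+/- array 1 lay apart from the other Stat6+/- arrays and just above the lowest Stat6-/- array. The difference was -1.26 ± 0.26 (SE, n = 5 and 5; adjusted p = 0.0130), and -1.17 with an adjusted p of 0.125 without the Stat6-/- arrays low in Y-linked probes. Of the 24 tested receptor chains 2 rose and 1 fell, with a median of 0.04.

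Of the 23 tested ligands, Il18 alone was called. Il18 is an IL-1 family cytokine, made as a precursor by epithelial cells and macrophages among others. It stood at -1.20, -1.24, -1.61, -1.67 and -1.97 in Stat6+/- lungs and at -0.28, -0.76, -0.82, 0.28 and -0.21 in Stat6-/- lungs. All Stat6+/- arrays were below all Stat6-/- arrays. The difference was -1.18 ± 0.18 (SE, n = 5 and 5), or 2.26-fold lower with Stat6, with an adjusted p of 0.00200, and -1.25 with an adjusted p of 0.0226 without the Stat6-/- arrays low in Y-linked probes. With quantile normalization in place of centring it was -0.76 and no longer called (adjusted p = 0.189).

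Il15, a growth factor of natural killer and memory T cells, and Il12b, a subunit shared by IL-12 and IL-23, also had groups that did not overlap. They were not called, with differences of -0.82 (adjusted p = 0.136) and -1.75 (adjusted p = 0.249). Il12b was measured on only 3 Stat6+/- and 4 Stat6-/- arrays, and groups so small separate more easily. Il1a, an agonist of the IL-1 receptor, had a difference of 1.47 (adjusted p = 0.228) and groups that did not overlap. In all, 8 of the 52 genes had groups that did not overlap, against 5.68% of everything tested.

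Il4i1, a secreted amino acid oxidase named for its induction by IL-4, rose as well. It stood at 2.50, 4.30, 1.96, 3.50 and 1.50 in Stat6+/- lungs and at -2.21, -0.17, 0.43, -0.05 and -0.88 in Stat6-/- lungs. The groups did not overlap. The difference was 3.33 ± 0.61 (SE, n = 5 and 5), or 10.0-fold, with an adjusted p of 0.00853, and 2.98 with an adjusted p of 0.0418 without the Stat6-/- arrays low in Y-linked probes. It was the largest fitted difference of the 52, but it exceeded that of Il7r by less than its SE, and without those arrays Il7r was the larger. Within reference pools 3 and 4 it was between 1.60 and 4.48, and each of the 7 called genes kept its direction in both pools.

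**Figure D2:**
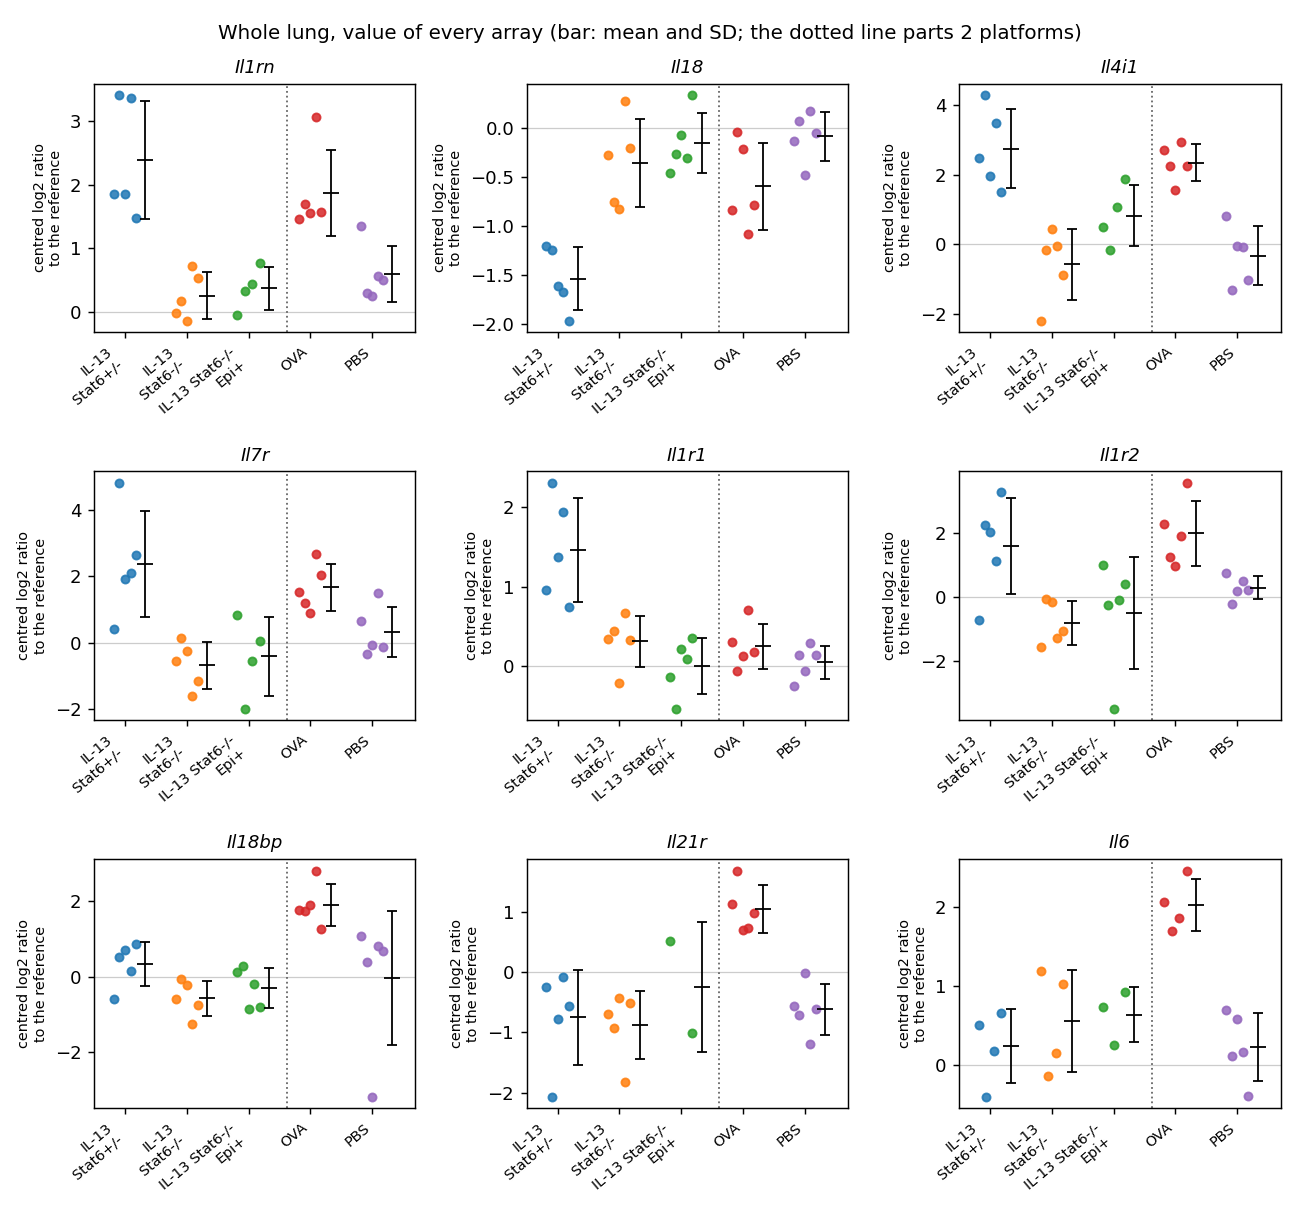
Centred log2 ratio to the reference on every whole lung array for 9 genes, with mean and SD of the measured arrays beside each group; the dotted line parts IL-13 arrays from the OVA and PBS arrays, which were on another platform with another reference. Il18 is lowest in the 5 Stat6+/- lungs, from -1.97 to -1.20, and Il4i1 is at 1.50 or higher in the Stat6+/- and OVA lungs.

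Macrophage markers differed between these groups too. Of 9 tested markers 8 were higher in Stat6+/- than in Stat6-/- lungs, with a median difference of 1.45, and the mean over the measured markers ran from 0.86 to 2.95 in Stat6+/-, from -0.23 to 0.48 in Stat6-/- and from 0.01 to 0.51 in Epi+ lungs. Among neutrophil markers Ltf and Cxcr2 of 9 were higher (median 1.37), and Siglecf of 9 eosinophil, basophil and mast cell markers was lower (median -0.53). Among B cell markers Blnk of 7 was higher, although 4 of the 7 differences lay below 0, with a median of -0.10. The surfactant genes Sftpa1 and Sftpd, of 8 alveolar and vascular markers, were higher, but 4 of the 8 differences lay below 0, with a median of 0.0084. Of those 4, 2 had an unadjusted p under 0.05 by limma. No T cell marker of 10 was called or had an unadjusted p under 0.05 by limma. The secretory cell marker Scgb3a2, 1 of 11 epithelial markers, was called lower, with a difference of -3.19, against most of its list. Of the 11 differences 9 were above 0, with a median of 0.55, and 4 of them had an unadjusted p under 0.05 by limma. The part of these cells in the interleukin differences was not tested, and ratios to a reference have no zero from which absence could be read.

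Among 45 genes listed as signalling partners of these receptors, 35 could be tested and 10 were higher in Stat6+/- lungs, with none lower. They were the adaptors Myd88 and Pycard, the factors Stat3 and Stat5a, the cytokine receptor chains Csf2ra, Csf2rb2, Osmr and Crlf2, and the feedback inhibitors Socs3 and Cish. Their differences ran from 0.98 for Stat3 to 2.34 for Csf2rb2.

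The lung comparison of IL-13 Stat6+/- with IL-13 Stat6-/- Epi+ shares the Stat6+/- arrays with the comparison above and asks which genes differ between these genotypes. Of 52 genes, 2 rose (Il1rn and Il1r1) and 1 fell (Il18), against 3.55% of everything tested (2.46% higher and 1.08% lower). Il18 stood at -0.47, -0.26, -0.07, -0.31 and 0.33 in Epi+ lungs, all above the Stat6+/- arrays, with a difference of -1.49 ± 0.18 (SE, n = 5 and 5; adjusted p = 0.000782). Il1rn stood at -0.05, 0.33, 0.44 and 0.77 on the 4 Epi+ arrays that measured it, all below the Stat6+/- arrays, with a difference of 1.95 ± 0.35 (SE; adjusted p = 0.0107). Il1r1 stood at -0.14, -0.54, 0.22, 0.09 and 0.35, also without overlap, with a difference of 1.37 ± 0.26 (SE, n = 5 and 5; adjusted p = 0.0143). Macrophage markers were higher in 7 of 9 cases here too, with a median of 1.60. Blnk, Ltf and Sftpd were also called higher, and Scgb3a2 and Siglecf lower. Scgb3a2 and Sftpd ran against most of their lists. Of 11 epithelial differences 8 were above 0 (median 0.25), and of 8 alveolar and vascular ones 5 were below 0 (median -0.22). The B cell median was 0.11, with 4 of 7 above 0. The part of these cells was not tested. Of the 35 tested partners 6 were higher (Csf2ra, Csf2rb2, Osmr, Crlf2, Socs3 and Cish).

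Epi+ lungs against Stat6-/- lungs gave no called gene among 52 by limma, against 0.0794% of everything tested, and 2 had an unadjusted p under 0.05, against 4.19%. These were Il4i1, with a difference of 1.59 ± 0.68 (SE; adjusted p = 0.983), and Il21, with 2.85 ± 1.15 (SE; adjusted p = 0.983). Il21, a T cell cytokine, was measured on 3 Stat6-/- arrays, at 1.92, 0.57 and -3.65, and on 4 Epi+ arrays, at 0.38, 1.31, 4.21 and 2.59, so its difference rests on few and overlapping values, with Stat6-/- array 5 far below the rest. Il4i1 stood at 0.49, -0.17, 1.08 and 1.89 on the 4 Epi+ arrays that measured it, partly within the Stat6-/- range. A p that misses the threshold does not show that the groups are alike, and for Il18, Il1rn and Il1r1 the differences were 0.31 ± 0.18, 0.18 ± 0.35 and -0.22 ± 0.26 (SE).

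In whole lung, OVA against PBS is a comparison on a second platform, within 1 reference pool. Of 54 genes, 3 rose (Il4i1, Il6 and Il21r) and none fell, against 1.94% of everything tested (1.64% higher). Higher values were not limited to the called genes, and 40 of the 54 were higher in OVA. The median difference was 0.56, beside 0.03 over everything tested. Of the 54 genes 17 had an unadjusted p under 0.05 by limma, all higher (16% of everything tested, in either direction). These shares were not tested against those of the array. In 9 genes the groups did not overlap (Il4i1, Il6, Il21r, Il2rb, Il1r2, Il12rb1, Il1rn, Il16 and Il18bp), against 7.78% of everything tested.

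Il4i1 stood at 2.71, 2.27, 1.56, 2.96 and 2.26 in OVA lungs and at 0.80, -1.31, -0.05, -0.08 and -1.04 in PBS lungs, with no overlap. The difference was 2.68 ± 0.42 (SE, n = 5 and 5), or 6.43-fold, with an adjusted p of 0.0127. Il6, a cytokine of acute inflammation, stood at 2.06, 1.69, 1.86 and 2.45 on the 4 OVA arrays that measured it and at 0.69, 0.11, 0.57, 0.16 and -0.40 in PBS lungs. These groups did not overlap either, and the difference was 1.79 ± 0.29 (SE; adjusted p = 0.0181).

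Il21r, the receptor of the T cell cytokine IL-21, stood at 1.13, 1.68, 0.70, 0.73 and 0.97 in OVA lungs and at -0.56, -0.71, -0.02, -1.19 and -0.62 in PBS lungs. The groups did not overlap, and the difference was 1.66 ± 0.28 (SE, n = 5 and 5; adjusted p = 0.0174). The calls of Il6 and Il21r were lost without OVA array 1 or PBS array 2, with an adjusted p of up to 0.0567 for Il6 and 0.0524 for Il21r, and differences of 1.63 to 1.90 and 1.50 to 1.81 over the 10 refits.

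The inhibitors were high in OVA lungs as values, although none was called. Il1rn stood at 1.47, 1.70, 1.56, 3.06 and 1.57 in OVA lungs and at 1.35, 0.30, 0.26, 0.57 and 0.50 in PBS lungs, a difference of 1.28 ± 0.35 (SE; adjusted p = 0.0999). Il1r2 stood at 2.28, 1.25, 0.98, 1.91 and 3.58 against 0.75, -0.22, 0.19, 0.49 and 0.22, a difference of 1.71 ± 0.45 (SE; adjusted p = 0.0851). Il18bp stood at 1.78, 1.75, 1.89, 2.82 and 1.28 against 1.09, 0.39, -3.19, 0.82 and 0.67, and its SE of 0.74 rests on PBS array 3. Il18 had a difference of -0.51 ± 0.26 (SE; adjusted p = 0.375).

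Macrophage markers rose in 8 of 10 cases in OVA lungs (median 1.81), with a mean over the markers of 1.65 to 2.79 against -0.17 to 0.63 in PBS lungs. Of 8 B cell markers Ms4a1 and Blnk were called higher. Of the 8 differences 7 were above 0 (median 1.73), 6 of them at an unadjusted p under 0.05 by limma. Of 9 eosinophil, basophil and mast cell markers Mcpt8 and Fcer1a were called higher. Of these 9 differences 8 were above 0 (median 2.30), 6 of them at an unadjusted p under 0.05 by limma. T cell markers had a median of 1.07 with no call by limma and 7 at an unadjusted p under 0.05. Alveolar and vascular markers had a median of -0.77, with 7 of 8 differences below 0, no call by limma and 5 at an unadjusted p under 0.05. Their part in the interleukin differences was not tested. None of 36 tested partners was called by limma, and 8 had an unadjusted p under 0.05, all higher.

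In tracheal perfusate, IL-13 Stat6+/- against IL-13 Stat6-/- gave 2 genes that fell and none that rose among 54, against 3.07% of everything tested (1.98% lower). Il13, which was left out of the genes described here, was itself lower in Stat6+/- than in Stat6-/- perfusate. Its difference was -0.99 ± 0.21 (SE; limma, adjusted p = 0.0118). The part of Il13 in the differences of the 2 genes was not tested. Il1rap, the accessory chain shared by receptors of the IL-1 family, stood at 0.17, -0.13, -0.01, -0.14 and -0.73 in Stat6+/- perfusate and at 1.06, 0.19, 0.87, 0.77 and 0.41 in Stat6-/- perfusate. The groups did not overlap, with Stat6+/- array 4 and Stat6-/- array 11 almost level. The difference was -0.83 ± 0.16 (SE, n = 5 and 5; adjusted p = 0.00408), and -0.97 with an adjusted p of 0.0331 without the Stat6-/- arrays low in Y-linked probes.

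Il17rb, a receptor chain for IL-25, stood at -1.41, -0.94, 0.20, -0.73 and -0.13 in Stat6+/- perfusate and at 0.33, 0.51, 0.21, 0.64 and 0.20 in Stat6-/- perfusate. Stat6+/- array 6 lay level with the lowest Stat6-/- arrays, and the difference was -0.98 ± 0.24 (SE, n = 5 and 5; adjusted p = 0.0284). The call was lost without any 1 of Stat6+/- arrays 4, 5 and 7 or Stat6-/- arrays 10, 11 and 13, with differences of -1.14 to -0.76 over the 10 refits and an adjusted p of up to 0.0953, and without the Stat6-/- arrays low in Y-linked probes (-1.04, adjusted p = 0.208). Its ligand Il25 had a difference of 0.55 ± 0.31 (SE; adjusted p = 0.502). No macrophage marker of 9 was called by limma here (median 0.01). Of 7 alveolar and vascular markers Sftpa1 was called lower, but 3 of the 7 differences lay above 0, with a median of -0.22. No other marker list held a call by limma. Of 8 B cell differences 7 were above 0 (median 0.61), 2 at an unadjusted p under 0.05. Of 11 epithelial ones 8 were above 0 (median 0.20), and 4 higher and 1 lower had an unadjusted p under 0.05. T cell and neutrophil markers had medians of 0.34 and 0.23. The part of these cells was not tested.

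Epi+ against Stat6-/- perfusate gave no call by limma among 54 genes, against 0.474% of everything tested, and 5 had an unadjusted p under 0.05, against 7.51%. Il1rap stood at 0.23, -0.16, 0.33, -0.0022 and -0.28 in Epi+ perfusate, with a difference of -0.64 ± 0.16 (SE; adjusted p = 0.0866), and Il1r2 had a difference of -0.78 ± 0.20 (SE; adjusted p = 0.106). Stat6+/- against Epi+ perfusate gave no call either, against 0.0379% of everything tested, and 5 had an unadjusted p under 0.05, against 6.98%.

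Against PBS, IL-13 Stat6+/- perfusate gave 1 gene that rose (Il1r1) and 3 that fell (Il17rd, Il1rap and Il15) among 54, against 7.13% of everything tested (2.89% higher and 4.24% lower). Il1r1 stood at -0.06, 0.33, 0.22, 1.08 and 1.28, and at -0.73, -0.14, -0.61, -0.27 and -0.42 in PBS perfusate. The groups did not overlap, and the difference was 1.00 ± 0.21 (SE, n = 5 and 5; adjusted p = 0.00569). Il17rd stood at -1.25, -0.61, -0.22, -0.87 and -0.32, below all PBS values of 0.32, 0.68, 0.01, 0.16 and -0.0032, with a difference of -0.89 ± 0.20 (SE; adjusted p = 0.0113).

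Il1rap stood at 0.92, 0.26, 0.60, 0.40 and 0.42 in PBS perfusate, above all Stat6+/- arrays, with a difference of -0.68 ± 0.16 (SE, n = 5 and 5; adjusted p = 0.0115). Il15 stood at -1.06, -1.17, -1.10, -1.17 and -1.11 in Stat6+/- perfusate, the tightest group of this gene, and at -0.12, -0.27, -0.56, -0.80 and -0.57 in PBS perfusate. Its difference was -0.66 ± 0.19 (SE; adjusted p = 0.0392), and the call was lost without any 1 of Stat6+/- arrays 4, 6, 7 and 8 or PBS arrays 22 and 23, with an adjusted p of up to 0.129 and differences of -0.76 to -0.52 over the 10 refits. The T cell markers Cd3d and Cd3g of 10 and the macrophage marker Ctss of 9 rose in this comparison, and Sftpa1 fell. Their part was not tested.

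IL-13 Stat6-/- Epi+ perfusate against PBS gave 1 gene that rose (Il1r1) and 1 that fell (Il1r2) among 54, against 3.01% of everything tested (1.38% higher and 1.63% lower), again a share near that of the array. Il1r2 stood at -1.33, -1.57, -1.41, -1.32 and -1.68 in Epi+ perfusate and at -0.21, -0.51, -0.17, -0.33 and -0.65 in PBS perfusate. The groups lay well apart, with a difference of -1.09 ± 0.20 (SE, n = 5 and 5), or 2.13-fold lower, and an adjusted p of 0.00606. Il1r1 stood at 0.67, 0.33, 0.03, 0.65 and 0.32, without overlap, with a difference of 0.84 ± 0.21 (SE; adjusted p = 0.0369). The Il1r1 call held only without Epi+ array 18 or PBS array 23 and was lost without any other of the 10 arrays, with an adjusted p of up to 0.0868 and differences of 0.66 to 0.92. The macrophage marker Cd68 of 9 rose in this comparison, although 5 of the 9 differences lay below 0, with a median of -0.04. The alveolar marker Sftpa1 of 7 fell. T cell markers had a median of 0.47 with no call by limma and 3 of 10 at an unadjusted p under 0.05. Their part was not tested.

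Il1r2 was also the 1 gene that changed with OVA against PBS in perfusate, where it was 1 of 54 genes tested and 0.246% of everything tested was called (0.0758% lower). It stood at -1.56, -0.91, -0.91, -2.11 and -1.24 with OVA, below all PBS arrays, with a difference of -0.97 ± 0.20 (SE, n = 5 and 5; adjusted p = 0.0451). The call held only without OVA array 29 or 32 and was lost without any other of the 10 arrays, with an adjusted p of up to 0.124 and differences of -1.09 to -0.75. Of 9 eosinophil, basophil and mast cell markers Mcpt2 rose and 3 had an unadjusted p under 0.05, and their part was not tested. Both differences share the PBS arrays, as does that of Stat6+/- against PBS, which was -0.64 ± 0.20 (SE; adjusted p = 0.0566). The Stat6+/- arrays ran from -1.25 to -0.73, also below all PBS arrays. IL-13 Stat6-/- perfusate against PBS gave no call by limma among 54 genes, against 0.619% of everything tested, and 3 had an unadjusted p under 0.05, all lower, against 19.5%. Its Il1r2 difference was -0.31 ± 0.20 (SE; adjusted p = 0.404).

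**Figure D3:**
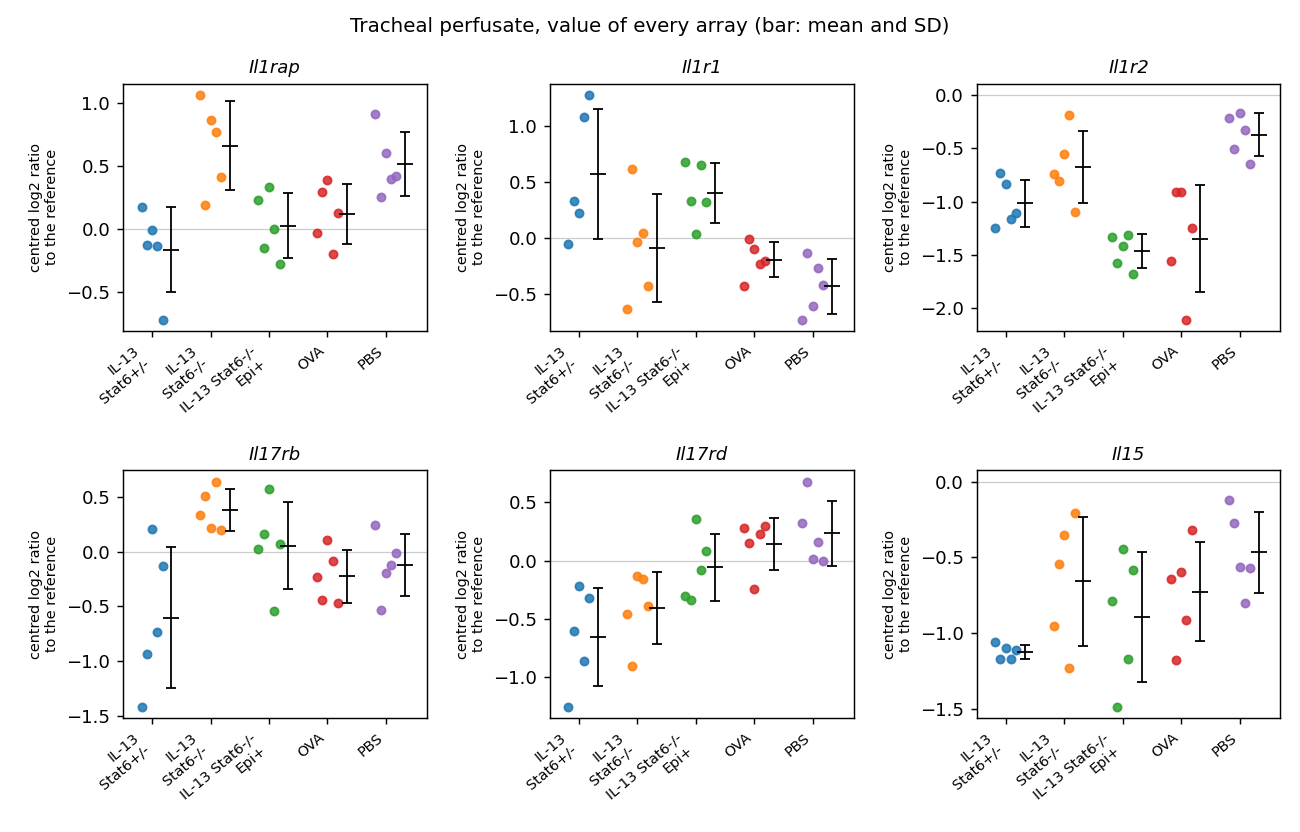
Centred log2 ratio to the reference on every tracheal perfusate array for the 6 genes that changed in a perfusate comparison, with mean and SD of each group of 5. Il1r2 in the Epi+ and OVA groups, from -2.11 to -0.91, lies below all 5 PBS arrays, which run from -0.65 to -0.17. The Stat6+/- arrays, from -1.25 to -0.73, also lie below them, although that difference was not called.

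The difference between Stat6+/- and Stat6-/- was itself compared between tissues, as an interaction term over the 40 arrays of the larger platform. Of 52 genes, 5 differed between perfusate and lung, against 4.5% of everything tested, 1 of them with the higher difference in perfusate (1.32%) and 4 with the lower (3.17%). For Il1r2 the difference was -0.34 in perfusate and 2.43 in lung, a gap of -2.77 ± 0.66 (SE; adjusted p = 0.0109), which was -2.86 with an adjusted p of 0.151 without the Stat6-/- arrays low in Y-linked probes. For Il4i1 the differences were 0.38 and 3.33, a gap of -2.94 ± 0.74 (SE; adjusted p = 0.0166), or -3.26 with an adjusted p of 0.0533 without those arrays. For Il18 they were 0.10 and -1.18, a gap of 1.27 ± 0.35 (SE; adjusted p = 0.0294), or 1.90 with an adjusted p of 0.0198 without those arrays.

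Il1rn and Il7r gave gaps nearer the threshold. For Il1rn the differences were 0.47 in perfusate and 2.13 in lung, a gap of -1.67 ± 0.48 (SE; adjusted p = 0.0409), or -0.99 with an adjusted p of 0.544 without the low Y-linked arrays. For Il7r they were 0.48 and 3.06, a gap of -2.59 ± 0.76 (SE; adjusted p = 0.0475), or -2.91 with an adjusted p of 0.228 without them. Both calls depended on single arrays: the Il1rn call was kept only without perfusate Stat6-/- array 13, perfusate Stat6+/- array 8, lung Stat6-/- array 2 or 5, or lung Stat6+/- array 1, 4 or 6, and the Il7r call only without perfusate Stat6+/- array 6 or 7 or lung Stat6+/- array 1 or 4. Over these refits the gaps ran from -1.96 to -1.35 and from -3.04 to -1.87, with an adjusted p of up to 0.0977 and 0.108. The Il18 call was lost without perfusate Stat6-/- array 13 or 14, perfusate Stat6+/- array 4 or 8, lung Stat6-/- array 5 or lung Stat6+/- array 5, with gaps of 1.11 to 1.46 and an adjusted p of up to 0.0787.

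**Figure D4:**
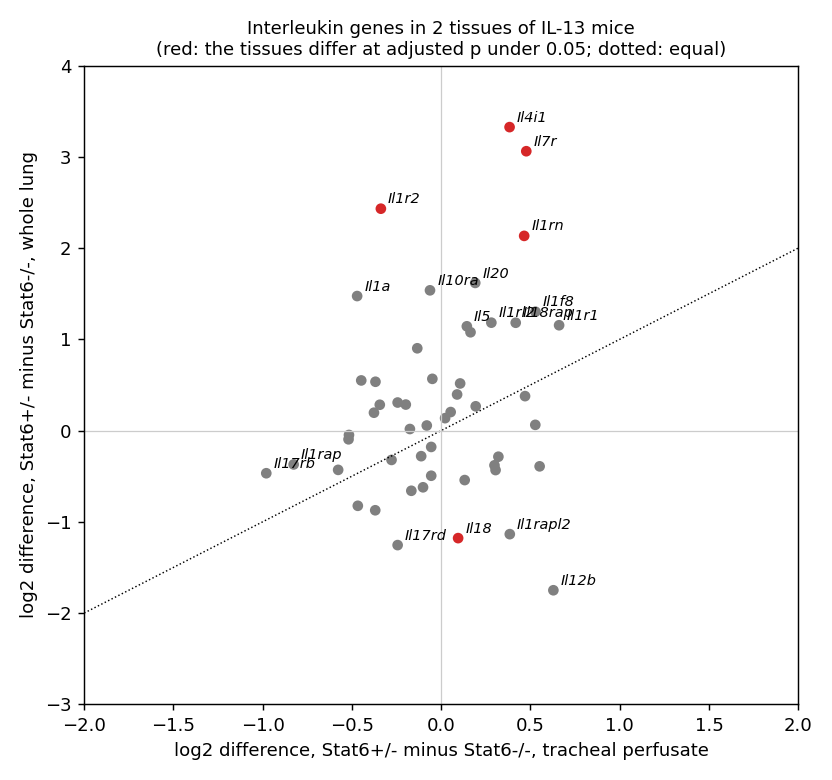
Log2 difference between IL-13 Stat6+/- and IL-13 Stat6-/- for each gene tested in both tissues, perfusate on the horizontal axis and whole lung on the vertical axis, with the dotted line where they are equal. Red points are the 5 genes whose tissues differ at adjusted p under 0.05; 4 lie above the line (Il4i1, Il7r, Il1r2 and Il1rn) and Il18 lies below it.

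In the same interaction the Stat6+/- minus Stat6-/- difference was lower in perfusate than in lung for 5 of 9 macrophage markers, for Sftpa1 and Sftpd of 7 alveolar and vascular markers, for Blnk of 7 B cell markers, for Ltf of 9 neutrophil markers and for 6 of 34 partners (Myd88, Pycard, Csf2ra, Csf2rb2, Socs3 and Cish). It was higher in perfusate for Scgb3a2 of 11 epithelial markers. Blnk, Sftpa1 and Sftpd ran against their lists. Of the 7 B cell gaps 6 were above 0 (median 0.50), and of the 7 alveolar and vascular gaps 5 were (median 0.35). The median gap was -1.68 for macrophage, -0.41 for neutrophil and 0.0045 for epithelial markers. The part of these cells was not tested. With quantile normalization Il1r2 was the 1 of the 5 still called, and Il18 was at 0.74 (adjusted p = 0.440), Il1rn at -0.97 (0.245), Il4i1 at -1.99 (0.170) and Il7r at -1.75 (0.228). The Epi+ against Stat6-/- difference gave no gene that differed between tissues by limma among 52, against 0.104% of everything tested, and 6 had an unadjusted p under 0.05, against 5.91%.

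The genes called only in lung or between tissues are given here in perfusate, as group means in the order Stat6+/-, Stat6-/-, Epi+, OVA and PBS. Il1rn had group means of -0.80, -1.27, -0.81, -0.97 and -1.34, and single arrays from -2.29 to -0.18. For Il18 single arrays lay between -1.80 and -0.06. Il18bp had group means of 0.80, 0.93, 0.65, 0.51 and 0.40, and single arrays from -0.18 to 1.68. None of these 3 genes, an antagonist, its family cytokine and the binding protein of that cytokine, was called within perfusate. For Il4i1 the means were -0.74, -1.12, -1.17, 0.49 and -0.28, with arrays from -2.26 to 1.18. Il7r had group means of 0.23, -0.25, -0.02, -0.20 and -0.64, and single arrays from -1.48 to 1.14. Neither was called within perfusate. For Il6 the means were 0.44, 0.72, 0.67, 0.06 and 0.62, with arrays from -0.44 to 2.27. Il21r had group means of 1.15, 0.30, 1.01, 1.27 and 0.50, and single arrays from -0.76 to 2.59. Both were called only in OVA lungs.

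The genes called only in perfusate are given in lung in the same order, where the last 2 groups lie on the other platform. Il1rap had group means of -0.57, -0.22, -0.41, -0.55 and -0.87, and single arrays from -1.90 to 0.19. For Il17rb the means were 0.18, 0.64, 0.29, 0.13 and -0.14, with arrays from -0.84 to 1.10. Il15 had group means of -0.66, 0.17, -0.27, 0.17 and -0.09, and single arrays from -1.27 to 0.64. None of them was called within lung.

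Several interleukins of allergic and inflammatory airways showed no call in any comparison. Il5, the growth factor of eosinophils, stood at -0.33, -0.13, 2.50, 0.36 and 0.39 in Stat6+/- lungs and at -0.77, 0.18, -0.50, -1.20 and -0.62 in Stat6-/- lungs. Array 4 stood far above the rest, and the difference was 1.14 ± 0.37 (SE; adjusted p = 0.107). In OVA lungs Il5 stood at 2.67, 1.24, 2.26 and 1.44 on the 4 arrays that measured it, against 0.96, 1.70, 1.50, 0.70 and 1.24 in PBS lungs, with overlap.

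Il10, a cytokine that restrains inflammation, had lung differences of 0.20 ± 0.37 (SE; adjusted p = 0.810) with Stat6 and 0.26 ± 0.28 (SE; adjusted p = 0.682) with OVA. Its arrays ran from -0.20 to 0.72 in Stat6+/- and from -1.32 to 0.53 in Stat6-/- lungs. Il17a, the cytokine of neutrophil recruitment, had 0.06 ± 0.36 (SE; adjusted p = 0.952) and 0.12 ± 0.37 (SE; adjusted p = 0.897). Its arrays ran from -1.70 to 0.45 in Stat6+/- and from -0.89 to -0.59 in Stat6-/- lungs. Il6, called in OVA lungs, had a difference of -0.32 ± 0.36 (SE; adjusted p = 0.682) in the lung Stat6 comparison. Il1b and Il1rl1 were not analysed here. Some genes rested on 2 spots that did not move together: those of Il6st correlated at -0.40 over 40 arrays, those of Il10rb at 0.21 over 31, and those of Il17rd on the smaller platform at 0.10 over 10, so their averages there are less certain.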

How the data were processed

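Arrays with a reference and a sample channel, from mouse tracheal perfusate and whole lung, were used as the log2 ratios that the authors deposited, 1 per spot, 19152 spots on 40 arrays and 18240 on 10. No source used here gives the scanner, the background correction or the normalization. The direction of the ratio is not stated. Each array was centred on its median (deposited medians -0.96 to 0.30), spots of 1 gene were averaged, and symbols came from the platform annotation, which lists 1 symbol for 15418 spots of the larger platform, several for 7 and none for 3727 (14857, 6 and 3377 on the smaller). Dye bias could not be removed and no spot was filtered on signal. The number of arrays limits the precision.

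Linear models (limma 3.58.1, R 4.3.3), solved separately by missing-value pattern, were fitted and tested on simulated data. A gene needed a value on at least 3 arrays of every group of the fit, p-values were adjusted by Benjamini-Hochberg over all genes and unnamed spots, and an adjusted p under 0.05 was called. The perfusate fit held 25 arrays with the 5 reference preparations as a block, the lung IL-13 fit 15 arrays with pools 3 and 4 as a block, and the lung OVA and PBS fit 10 arrays. Tissues were compared by an interaction over 40 arrays. In 9 of the 13 comparisons the group means of the removed medians differed by more than 0.1 (-0.37 in lung Stat6+/- against Stat6-/-, 0.49 in the same interaction), and differences are relative to these shifts.

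The members, families, partner and marker lists, and the arrays named as low in Y-linked probes, were chosen with earlier results of these data known. Single array values are given for called members and Il5 in the comparisons that discuss them, and group means or ranges for called members elsewhere and for Il10 and Il17a. The largest and smallest differences and family members of a named gene may be named too. Outside the members only called partners and markers are named, besides Il13, Stat6 and the Y-linked probes. Upstream sequences are from RefSeq. Alternatives were the deposited values, quantile normalization, averaging by accession, other missing-value limits, no reference block, fits of 2 groups, a replicate block, and leaving out arrays.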

Additional observations from a re-analysis of the deposited data

Results flagged for a closer look

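The 13 called genes and Il5, Il10 and Il17a, 16 genes in all, were searched in each of the 10 groups for an array far from the others. Dixon's limit was used, which chance passes in about 1 in 20 groups, and groups with fewer than 4 values were left out. The search found 11 values, and over so many groups that rate would by itself give several. They were Il17rb at -0.84 on lung PBS array 1, Il17rd at -0.24 on perfusate OVA array 30 and at -0.059 on lung Stat6+/- array 1, and Il18bp at 0.17 on perfusate Stat6+/- array 6 and at -3.19 on lung PBS array 3. Il1r2 was at -3.51 on lung Epi+ array 3, and Il1rn at 3.06 on lung OVA array 5 and at 1.35 on lung PBS array 1. Il5 was at 2.50 on lung Stat6+/- array 4, Il10 at -1.32 on lung Stat6-/- array 5 and Il17a at -0.62 on perfusate Stat6+/- array 4.

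The difference between Stat6+/- and Stat6-/- itself differed between perfusate and lung in 5 genes by the interaction test: Il1r2 (-2.77), Il4i1 (-2.94), Il18 (1.27), Il1rn (-1.67) and Il7r (-2.59).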

How the results depend on the processing

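The calls depended on the centring, on the reference block and on the number of groups that shared the estimate of spread. Only called values were followed through the alternatives, and of their 498 refits 339 kept the call, 159 lost it and 0 changed sign. Without centring, the numbers of called interleukin genes were 0 (perfusate Stat6+/- against Stat6-/-), 0 (perfusate OVA), 1 and 1 (perfusate Stat6+/- and Epi+ against PBS), 3, 1 and 1 (lung Stat6+/- against Stat6-/-, against Epi+, and OVA) and 2 (interaction), against 2, 1, 4, 2, 7, 3, 3 and 5 as reported. With quantile normalization they were 0 for perfusate OVA, 1 for perfusate Epi+ against PBS (Il1r2 lost), 1 for the interaction (only Il1r2 called), 6 for perfusate Stat6+/- against PBS (Il15 lost) and 6 for lung Stat6+/- against Stat6-/- (Il6ra gained, Il18 and Il7r lost, at -0.76 and 2.81, adjusted p = 0.189 and 0.0505). Without the reference block they were 0 for perfusate OVA, 2 and 1 for perfusate Stat6+/- and Epi+ against PBS, 2 for the interaction and 5 for lung Stat6+/- against Stat6-/- (Il18bp and Il1r1 lost, adjusted p = 0.221 and 0.0677). With fits of only the 2 groups they were 0 in each of those 4 perfusate comparisons, and 4 and 1 in lung Stat6+/- against Stat6-/- and Epi+. With 1 array per group enough for a test, perfusate OVA gave 0. Without the Stat6-/- arrays low in Y-linked probes, with 2 arrays per group enough, perfusate Stat6+/- against Stat6-/- gave 1, the same in lung gave 3 and the interaction gave 1. Averaging by accession left every count as reported. Over all genes, lung Stat6+/- against Stat6-/- gave 757 calls, 296 without centring, 390 without the reference block and 218 without the low Y-linked arrays; perfusate Stat6+/- against PBS gave 1128, 307 without centring and 3 with only its groups. The causes were not tested.

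Leaving out 1 array gave 1 to 2 (perfusate Stat6+/- against Stat6-/-), 0 to 1 (perfusate OVA), 3 to 5 and 1 to 2 (perfusate Stat6+/- and Epi+ against PBS), 0 to 1 (perfusate Epi+ against Stat6-/-), 4 to 8, 3 to 7 and 1 to 3 (lung Stat6+/- against Stat6-/-, against Epi+, and OVA), and 2 to 7 and 0 to 1 (interactions). Of these 320 refits of called values 236 kept the call.

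With the lung replicate numbers as a replicate block, 0 genes remained called in Stat6+/- against Stat6-/-, 1 (Il18) in Stat6+/- against Epi+ and 0 in OVA against PBS; over all genes 101, 63 and 0 were called, against 757, 536 and 309. In IL-13 lungs, arrays of the same number in 2 groups correlated between -0.41 and 0.28 (median 0.06), with 3 of 12 pairs above 0.1. Those of different number correlated between -0.36 and 0.41 (median -0.05), with 20 of 63 above 0.1. Both sets mix pairs within and across reference pools. Within a pool, pairs of the same number ran from -0.01 to 0.28 and pairs of different number from 0.02 to 0.41. Arrays of the same number thus did not stand out within a pool, but these few pairs do not settle whether the numbers pair the arrays. In OVA and PBS lungs the 4 same-number pairs ran from -0.17 to -0.01 and the 21 others from -0.21 to 0.23. Perfusate titles share no numbers between groups.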
